A study of Mus musculus with 6 samples.

Results

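The genes described here are 7 of the 30821 genes in the authors' comparison table, chosen by name: the kainate receptor subunit genes Grik1, Grik2, Grik3 and Grik5, the auxiliary subunit genes Neto1 and Neto2, and the delta receptor gene Grid1. Each name matched 1 row, and all 7 passed the filter on low counts. Each library held hippocampal RNA of a single male C57BL/6J mouse. The TAF15 OE group was 3 mice given, by injection into CA1 on both sides, an adeno-associated virus that expresses TAF15, and its label names the CaMKIIα promoter, which is active in excitatory neurons. The other 3 mice received a control virus by the same injection (Control), whose promoter is not given in the sources used here. Injection took place when mice were 8 weeks old, and a time of 31 days is labelled. The virus was aimed at CA1, whereas the RNA was taken from the hippocampus, so each library also holds CA3, dentate gyrus and interneurons. TAF15 is an RNA-binding protein that binds nascent transcripts and takes part in transcription, and the series title links it to memory and to Npas4, an activity-induced transcription factor. The comparison asks how receptor gene levels differed with raised TAF15.

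Kainate receptors are glutamate-gated cation channels made of 4 subunits. GluK1, GluK2 and GluK3, from Grik1 to Grik3, bind agonist with low affinity and form channels on their own, while the high-affinity subunit GluK5, from Grik5, needs one of them as a partner. In the hippocampus these channels give the slow excitatory current at mossy fibre synapses onto CA3 neurons, and they also sit on axon terminals and interneurons. Neto1 and Neto2 are single-pass membrane proteins that slow the closing of kainate receptors. GluD1, from Grid1, resembles these receptors in sequence but is known mainly as a synaptic organiser, which binds secreted cerebellins that bridge it to neurexins on the opposite membrane. The family's other high-affinity subunit and its other delta subunit are not analysed here.

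Taf15 stood at 249, 241 and 272 CPM (read counts relative to the scaled library total) in TAF15 OE 1, 2 and 3, against 61.7, 63.5 and 53.0 CPM in Control 1, 2 and 3. The libraries held between 14965464 and 16067000 counts. Control 1 and TAF15 OE 1 stood apart from the other 4 libraries on the second principal component, which carried 21.7% of the variance. They also held less choroid plexus RNA: the 7 markers of that tissue summed to 1536 CPM in TAF15 OE 1 and 146 CPM in Control 1, against 4294 to 4991 CPM in the other 4. The fit was repeated without both. Markers of CA1, CA3, dentate granule cells and interneurons were detected, with none at 0.

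Grik5 and Grid1 were lower in TAF15 OE, by 18.7% and 21.4%, and the other 5 genes did not pass the test. Thus 2 of 7 were called lower, where the same rule called 15.3% of all 16758 tested genes in either direction and 5.95% lower. None was called higher, against 9.32% of all genes. The test was edgeR's quasi-likelihood test with Benjamini-Hochberg adjustment over all tested genes, and a gene was called at an adjusted p below 0.05. The log2 fold changes of the 7 genes had a median of -0.14, beside 0.026 over all tested genes, and 6 of them were negative. All 3 TAF15 OE libraries lay below all 3 Control libraries in 3 of the 7 genes (Grik5, Neto2 and Grid1), and this held for 15.5% of all tested genes. In no member did all TAF15 OE libraries lie above all Control libraries, which held for 19.1% of all genes. Both falls were small in size and depended on how the libraries were scaled, as given after the members' values.

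**Figure D1:**
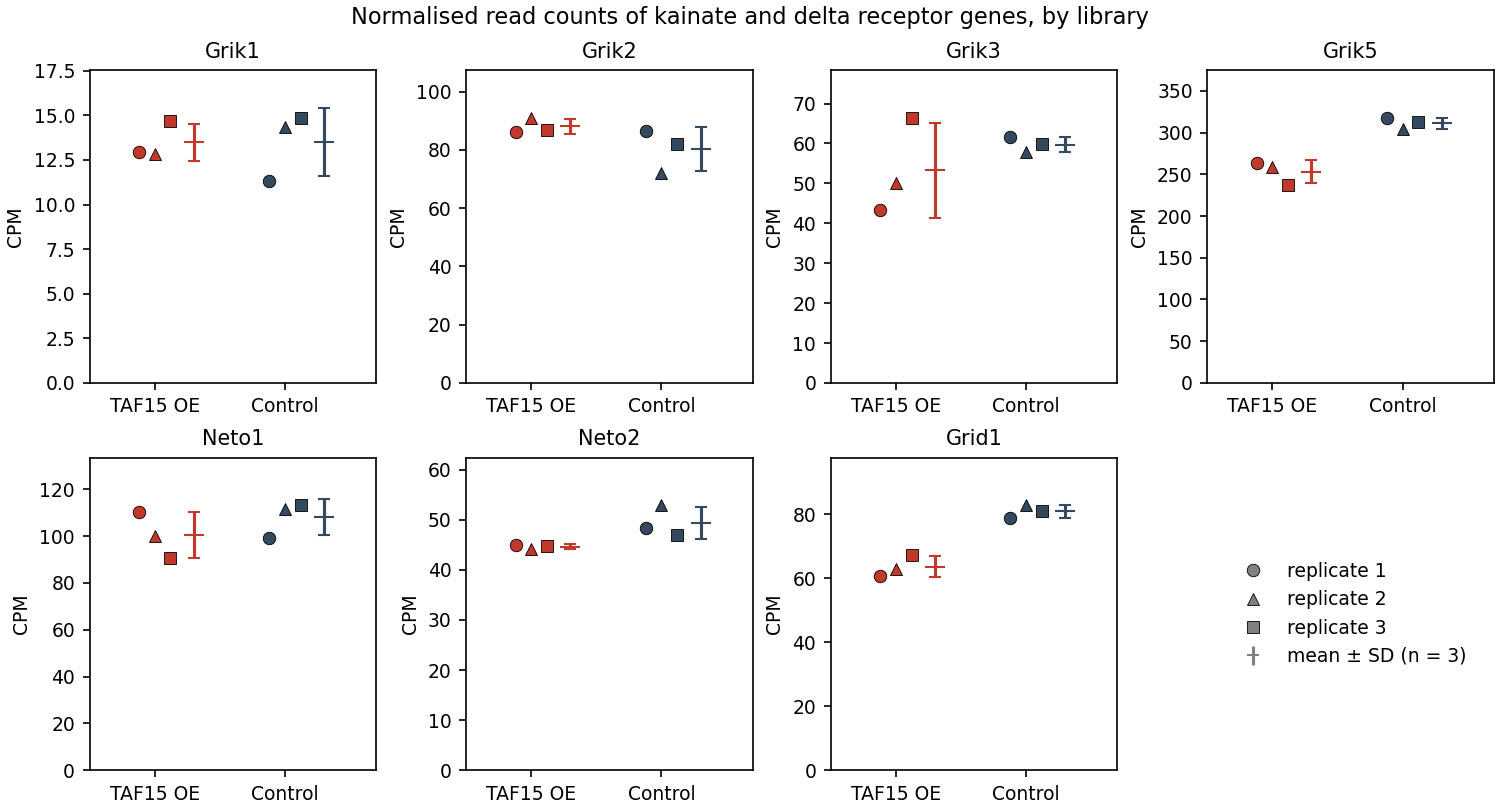
Normalised read counts (CPM, vertical axes starting at 0) of the 7 genes in each library, TAF15 OE in red and Control in dark blue, with the mean and SD of 3 mice beside the points. Grik5 and Grid1 separate the groups by the widest margins, Neto2 separates them narrowly, and the other 4 genes overlap.

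Within a library, levels of different genes were compared as FPKM, which divides counts by gene length. Grik5 was the most abundant of the 7 in both groups, at 49.7 ± 2.24 FPKM in TAF15 OE and 59.2 ± 0.423 FPKM in Control (mean ± SD, n = 3 mice per group, here and below). Neto1 came next at 28.8 ± 2.50 FPKM in TAF15 OE and 30.1 ± 2.62 FPKM in Control, then Grid1 at 10.6 ± 0.659 FPKM in TAF15 OE and 13.1 ± 0.551 FPKM in Control. Neto2 followed, at 7.39 ± 0.0969 FPKM in TAF15 OE and 7.92 ± 0.605 FPKM in Control. By group mean these first 4 places were the same in both groups, with no overlap between neighbours in either. In the single library TAF15 OE 3, however, Grik3 lay above Neto2. Grik2 and Grik3 filled the next places with 6.75 ± 0.228 and 6.03 ± 1.41 FPKM in TAF15 OE. In Control they stood at 5.95 ± 0.460 and 6.53 ± 0.0980 FPKM. In TAF15 OE their libraries overlapped, and in Control Grik3 was above Grik2 in all 3. Grik1 was the lowest, at 2.22 ± 0.192 FPKM in TAF15 OE and 2.15 ± 0.334 FPKM in Control. The order rests on the gene lengths behind the FPKM, which ran from 3531 bases for Neto1 to 13246 bases for Grik2 and count every annotated isoform of a gene as 1 length.

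Grik1 (ENSMUSG00000022935, chromosome 16, 87895901 to 88290258, minus strand, GRCm38) encodes GluK1, which in the hippocampus is found chiefly in interneurons. It had 13.0, 12.8 and 14.7 CPM in TAF15 OE 1, 2 and 3, and 11.3, 14.3 and 14.9 CPM in Control 1, 2 and 3. The groups overlapped, with Control 1 the lowest of the 6 libraries. The log2 fold change was -0.0014 (SE 0.14, adjusted p = 0.996), with a 95% interval of -0.30 to 0.30. With 167 to 242 counts per library it was the least deeply covered of the 7 genes.

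Grik2 (ENSMUSG00000056073, chromosome 10, 49094833 to 49788766, minus strand) encodes GluK2, a main subunit of the mossy fibre receptor. It had 86.3, 91.0 and 87.0 CPM in TAF15 OE 1, 2 and 3, and 86.7, 72.0 and 82.1 CPM in Control 1, 2 and 3. Control 1 lay within the TAF15 OE libraries and Control 2 was the lowest, so the groups overlapped. Grik2 was the only 1 of the 7 with a positive value, 0.13 as log2 fold change (SE 0.079, adjusted p = 0.291, 95% interval -0.039 to 0.31), and it did not pass the test. The value was 0.060 without Control 2 and 0.19 without Control 1, and neither was called.

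Grik3 (ENSMUSG00000001985, chromosome 4, 125490700 to 125714173, plus strand) encodes GluK3, a subunit of presynaptic kainate receptors. It had 43.3, 50.1 and 66.4 CPM in TAF15 OE 1, 2 and 3, and 61.6, 57.8 and 59.8 CPM in Control 1, 2 and 3. TAF15 OE 3 was the highest of all 6 libraries and the other TAF15 OE libraries were the lowest, so the SD was 11.9 CPM in TAF15 OE against 1.92 CPM in Control. The log2 fold change was -0.16 (SE 0.14, adjusted p = 0.490, 95% interval -0.48 to 0.15). Without TAF15 OE 3 it was -0.36 and the gene was called lower (edgeR, adjusted p = 0.0321), so that library decided the call. Without TAF15 OE 1 it was -0.060 (adjusted p = 0.772), and without both Control 1 and TAF15 OE 1 it was -0.038 (adjusted p = 0.880).

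Grik5 (ENSMUSG00000003378, chromosome 7, 25009849 to 25072346, minus strand) encodes the high-affinity subunit. It had 263, 259 and 237 CPM in TAF15 OE 1, 2 and 3, and 318, 304 and 312 CPM in Control 1, 2 and 3. Every TAF15 OE library was below every Control library, and the gap between the groups was wider than the range within either. The log2 fold change was -0.30 (SE 0.066, adjusted p = 0.0127, 95% interval -0.44 to -0.15), from 3911 to 4686 counts per library. Grik5 was called lower with each library left out in turn, at log2 fold changes between -0.35 and -0.26 (edgeR, adjusted p 0.00824 to 0.0479). Without both Control 1 and TAF15 OE 1 it was -0.34 (adjusted p = 0.0131). In the authors' deposited table the log2 fold change of Grik5 is -0.33 with an adjusted p of 5.81e-04, and the row is not marked significant there by a rule that is not given in the sources used here.

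RefSeq promoter windows (GRCm38.p6, from 250 bases before the start to 50 after it) were matched for 4 of the 7 genes: Grik2, Grik3, Grik5 and Neto2, the last with 2 starts. Neto1 was not searched for, because its chromosome was left out of the matching. The windows of Grik5, which fell, and Grik2, the only member with a positive fold change, are shown. Capitals mark GGGCGG, the GC box, on either strand.
Grik5, chr7:25072320-25072619, minus strand: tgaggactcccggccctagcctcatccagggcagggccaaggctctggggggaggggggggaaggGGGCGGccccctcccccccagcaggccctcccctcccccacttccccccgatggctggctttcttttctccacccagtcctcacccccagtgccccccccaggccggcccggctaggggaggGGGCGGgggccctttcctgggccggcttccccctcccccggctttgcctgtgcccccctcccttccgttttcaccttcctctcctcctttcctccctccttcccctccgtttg
Grik2, chr10:49788705-49789004, minus strand: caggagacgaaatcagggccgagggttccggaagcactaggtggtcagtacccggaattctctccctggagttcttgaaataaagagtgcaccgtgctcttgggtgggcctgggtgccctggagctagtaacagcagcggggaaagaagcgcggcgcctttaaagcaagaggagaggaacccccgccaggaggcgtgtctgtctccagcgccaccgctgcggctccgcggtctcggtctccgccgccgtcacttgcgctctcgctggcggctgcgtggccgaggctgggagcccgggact
The Grik5 window was 72.0% G and C with 10 CpG dinucleotides and 2 GC boxes, and the Grik2 window was 64.7% G and C with 26 CpG dinucleotides and 0 GC boxes. The window of Grik3, which was not called, was 82.0% G and C with 7 of them, and the windows of Neto2, also not called, held 2 and 0. Over 32841 windows of the same length the medians were 52.7% and 7 CpG dinucleotides, and 35.7% held a GC box. The letters TCGTG, bound by Npas4 with its partners, TGACGTCA, the cyclic AMP response element, and CACGTG, an E-box, were searched on both strands, and none was in either window. They stood in 16.0%, 1.79% and 7.15% of all windows. No 2 matches overlapped.

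Neto1 (ENSMUSG00000050321, chromosome 18, 86394952 to 86501897, plus strand) encodes an auxiliary subunit that also associates with NMDA receptors. It had 110, 100.1 and 90.7 CPM in TAF15 OE 1, 2 and 3, and 99.3, 112 and 113 CPM in Control 1, 2 and 3. The groups overlapped: TAF15 OE 1 was the highest of its group and Control 1 the lowest of its own. The log2 fold change was -0.11 (SE 0.086, adjusted p = 0.460, 95% interval -0.29 to 0.082). Without both of those libraries the groups no longer crossed, and the log2 fold change was -0.26 (adjusted p = 0.0550), which did not pass the test. An antisense gene overlaps 2 exons of Neto1 in GENCODE M21, and whether the counting used strand is not given in the sources used here.

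Neto2 (ENSMUSG00000036902, chromosome 8, 85636588 to 85700924, minus strand) encodes the other auxiliary subunit, which shortens the time kainate receptors stay desensitised. It had 45.0, 44.2 and 44.9 CPM in TAF15 OE 1, 2 and 3, and 48.3, 52.9 and 46.9 CPM in Control 1, 2 and 3. The groups did not overlap, with Control 3 the nearest to the TAF15 OE libraries. The difference did not pass the test (log2 fold change -0.14, SE 0.079, adjusted p = 0.254, 95% interval -0.32 to 0.029).

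Grid1 (ENSMUSG00000041078, chromosome 14, 34819825 to 35583379, plus strand) encodes GluD1. It had 60.9, 62.8 and 67.2 CPM in TAF15 OE 1, 2 and 3, and 79.0, 82.9 and 81.0 CPM in Control 1, 2 and 3. As with Grik5, the groups were apart by more than the range within either. The log2 fold change was -0.35 (SE 0.070, adjusted p = 0.00807, 95% interval -0.50 to -0.19), the largest fall of the 7 genes. It was called lower with each library left out in turn, at log2 fold changes between -0.40 and -0.33 (edgeR, adjusted p 0.0115 to 0.0318). Without both Control 1 and TAF15 OE 1 it was -0.36 (adjusted p = 0.0122). In the authors' deposited table the log2 fold change of Grid1 is -0.38 with an adjusted p of 7.37e-04, and this row is not marked significant either. The called genes were of unlike size: Grid1 spans 764 kb, the longest of the 7, and Grik5 62.5 kb, the shortest.

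The proportions of subunits within a library do not depend on the scaling of libraries. Grik5 made up 79.1%, 77.5% and 73.8% of the summed FPKM of Grik1, Grik2, Grik3 and Grik5 in TAF15 OE 1, 2 and 3, and 80.1%, 80.6% and 79.8% in Control 1, 2 and 3. Grik2 made up 10.1%, 10.6% and 10.5% in TAF15 OE 1, 2 and 3, and 8.53%, 7.44% and 8.19% in Control 1, 2 and 3. The share of Grik5 was thus lower, and that of Grik2 higher, in every TAF15 OE library than in any Control library. The Grik1 share was 3.43% ± 0.337 in TAF15 OE and 2.91% ± 0.451 in Control. It was also without overlap, though narrowly, with 3.21% in TAF15 OE 2 and 3.18% in Control 3 as the nearest values. The Grik3 share overlapped, at 9.34% ± 2.28 in TAF15 OE and 8.85% ± 0.0849 in Control. Shares are parts of one sum, so a lower Grik5 share goes with higher shares of the others, and these differences are not independent. A two-sided exact permutation test gave p = 0.10 for the shares of Grik1, Grik2 and Grik5, the smallest p that 3 against 3 mice allow, and adjusted p = 0.233 over the 7 shares and ratios compared. For the Grik3 share the exact p was 1.0.

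**Figure D2:**
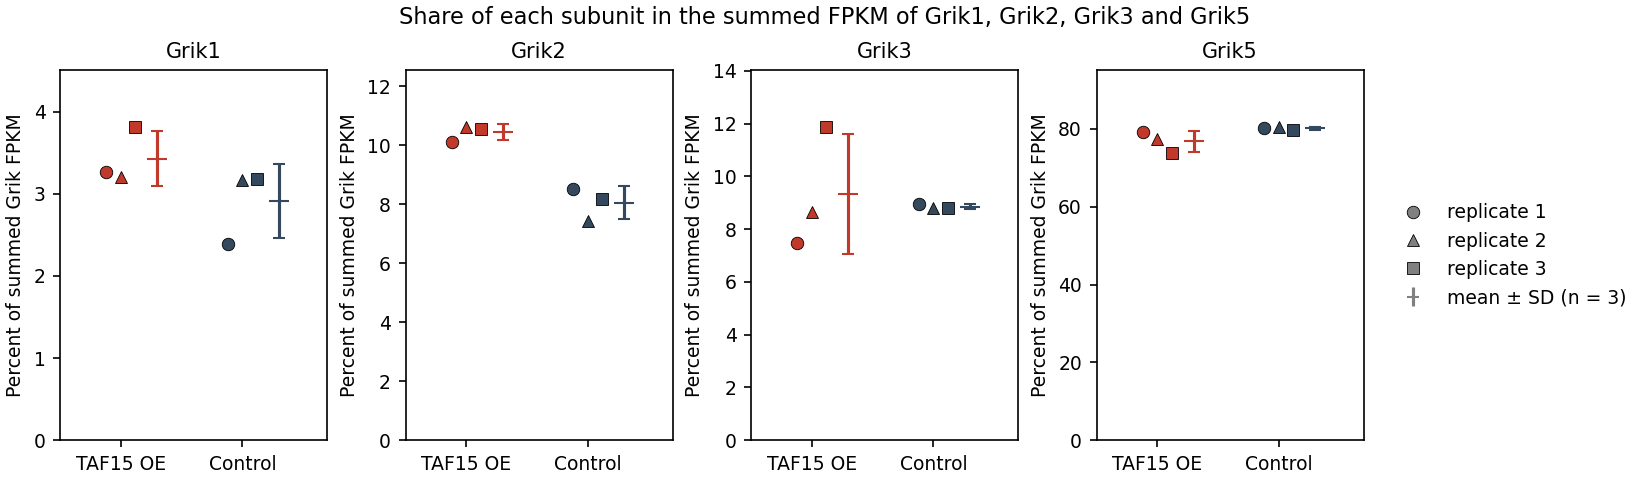
Percent of the summed FPKM of Grik1, Grik2, Grik3 and Grik5 that each gene made up in each library (vertical axes starting at 0), TAF15 OE in red and Control in dark blue, with mean and SD of 3 mice. Grik2 lies between 10.1% and 10.6% in TAF15 OE and between 7.44% and 8.53% in Control, while Grik3 is spread in TAF15 OE and tight in Control.

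The summed FPKM of the 4 Grik genes was 64.7 ± 0.934 in TAF15 OE and 73.8 ± 0.872 in Control. The summed FPKM of Neto1 and Neto2 was 36.2 ± 2.42 in TAF15 OE and 38.0 ± 2.95 in Control, so that the sum per Grik sum was 0.560 ± 0.0360 in TAF15 OE and 0.515 ± 0.0416 in Control, with overlap (exact permutation p = 0.30, adjusted p = 0.42). That ratio was 0.469 in Control 1 and 0.600 in TAF15 OE 1, and without both the difference of 0.045 shrank to 0.0023. Neto1 made up 79.5% ± 1.60 of the summed Neto FPKM in TAF15 OE and 79.1% ± 1.40 in Control (exact permutation p = 0.90, adjusted p = 1.0). Grid1 per Grik sum was 0.164 ± 0.0116 in TAF15 OE and 0.177 ± 0.00863 in Control, with overlap (exact permutation p = 0.30, adjusted p = 0.42).

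Markers of neurons in general, like Grik5 and Grid1, were lower where they were called. Of 12 such markers 7 were called lower and 0 higher, where 5.95% of all tested genes were called lower and 9.32% higher. The markers' median log2 fold change was -0.26. In 10 of the 12 all TAF15 OE libraries lay below all Control libraries, as in 15.5% of all tested genes. The summed level of the 12 markers was 6219 to 6458 CPM in TAF15 OE and 7287 to 7876 CPM in Control, a mean 15.8% lower. The most abundant were Snap25 and Syt1, both called lower, and Map2, which was not called (adjusted p = 0.678). Markers of other cells were called higher: 6 of 8 of astrocytes, 6 of 8 of oligodendrocytes, 7 of 8 of microglia and 4 of 7 of endothelial cells. Of 6 thalamus markers 3 were called higher and 1 lower, with overlapping sums of 145 to 175 CPM in TAF15 OE and 137 to 151 CPM in Control. Without Control 1 and TAF15 OE 1 the higher calls numbered 6 for astrocytes, 3 for oligodendrocytes, 7 for microglia, 1 for endothelial cells and 1 for thalamus. In that fit 1197 of 16968 tested genes were called higher. The astrocyte sum was 8537 to 9347 CPM in TAF15 OE and 4922 to 6149 CPM in Control. The oligodendrocyte sum was 6028 to 7814 CPM in TAF15 OE and 4912 to 5294 CPM in Control, and the microglia sum was 804 to 1205 CPM in TAF15 OE and 411 to 457 CPM in Control. The endothelial sum was 269 to 343 CPM in TAF15 OE and 197 to 245 CPM in Control. No listed marker was at 0. CPM is relative to the library total. In whole tissue, fewer neurons, less of a transcript per neuron and more RNA of other cells thus cannot be told apart.

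When the libraries were scaled on the summed counts of the 12 neuronal markers, the falls of Grik5 and Grid1 were not called. Grik5 then had a log2 fold change of -0.051 (edgeR, adjusted p = 0.539) and Grid1 of -0.10 (adjusted p = 0.350). Grik2 was called higher under that scaling, at 0.38 (adjusted p = 0.00297), so that 1 of 7 was called higher where this scaling called 31.9% of all tested genes higher and 1.02% lower. Grik1 (0.24), Grik3 (0.087), Neto1 (0.14) and Neto2 (0.10) had positive values and were not called. Under this scaling the median over all tested genes was 0.27, so each value is relative to the neuronal markers. Grik2 lay above that median, Grik1 (0.24, SE 0.16) was near it, and the other members were below it. These positions were not tested and are not separate evidence from the first scaling.

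**Figure D3:**
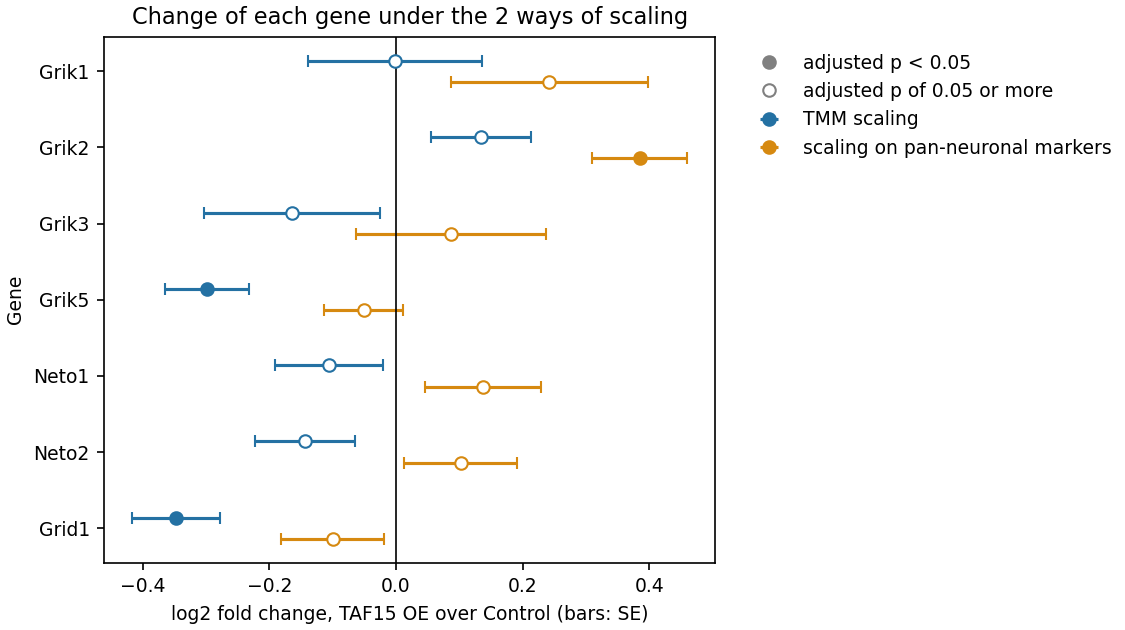
Log2 fold change of TAF15 OE over Control for each gene, with SE as bars, under TMM scaling of all tested genes (blue) and under scaling on 12 pan-neuronal markers (orange); filled points have an adjusted p below 0.05. Grik5 and Grid1 are filled under the first and Grik2 under the second.

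Markers of the neuron classes that carry these receptors were counted separately, and no test compared the classes. Beside the counts below, 5.95% of all tested genes were called lower and 9.32% higher with all libraries. Of 8 CA1 pyramidal markers 2 were called lower, and their sum was 643 to 837 CPM in TAF15 OE and 915 to 922 CPM in Control. Of 7 CA3 markers none was called by edgeR, though their sum was lower without overlap, at 353 to 416 CPM in TAF15 OE and 431 to 461 CPM in Control. DESeq2 called 2 of the 7 lower, and so did edgeR without Control 1 and TAF15 OE 1. Without those libraries the calls for CA1 were 3 lower and 1 higher, where 1017 of 16968 tested genes were called lower and 1197 higher. Of 8 dentate granule markers 4 were called lower, with overlapping sums of 511 to 676 CPM in TAF15 OE and 661 to 803 CPM in Control. Of 12 interneuron markers 2 were called lower, and their sums also overlapped, at 823 to 978 CPM in TAF15 OE and 926 to 981 CPM in Control. Without Control 1 and TAF15 OE 1 the interneuron calls were 1 lower and 1 higher. Of 8 markers of oligodendrocyte precursors, which also carry kainate receptors, 2 were called higher, with sums of 294 to 328 CPM in TAF15 OE and 254 to 264 CPM in Control. The part of these cell classes in the values of the receptor genes was not tested.

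Proteins that bind kainate receptors and move or modify them were mostly not called. Of 18 such genes tested, 3 were called lower and 0 higher, where 5.95% of all tested genes were called lower and 9.32% higher. The median log2 fold change was -0.012, beside 0.026 over all genes. The 3 were the synaptic scaffold genes Dlg3 (log2 fold change -0.39, SE 0.070, adjusted p = 0.00464) and Dlg4 (-0.34, SE 0.079, adjusted p = 0.0158), and the vesicle fusion gene Snap25 (-0.28, SE 0.074, adjusted p = 0.0253), which is also one of the neuronal markers. Dlg3 stood at 201 ± 9.16 CPM in TAF15 OE and 263 ± 14.9 CPM in Control. Dlg4, which encodes PSD-95, stood at 736 ± 50.9 CPM in TAF15 OE and 931 ± 63.3 CPM in Control. Klhl24, whose protein lowers kainate receptor currents, had the next smallest p and the opposite sign, 0.26 (SE 0.081, adjusted p = 0.0512). Klhl24 was not called, but edgeR called it without Control 1 (0.33, adjusted p = 0.0317) and without both Control 1 and TAF15 OE 1 (0.0250). It was also called with total counts (0.0196), a mean of at least 1 CPM (0.0462) and the replicate block (0.0265), though not by DESeq2 (0.103) or limma-voom (0.0652). Dlg4 was not called without Control 1 (adjusted p = 0.0546), TAF15 OE 2 (0.0665) or TAF15 OE 3 (0.0556). Snap25 was not called without Control 1 (0.0744), Control 2 (0.0600), TAF15 OE 2 (0.0940) or TAF15 OE 3 (0.0758). Under scaling on neuronal markers none of the 3 was called (adjusted p = 0.0923 for Dlg3, 0.302 for Dlg4 and 0.674 for Snap25). Snap25 is itself among the markers that set this scaling, so its loss of the call there is not separate evidence. Under the same scaling 6 of the 18 were called higher, Klhl24 among them, beside 31.9% of all tested genes.

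Of 11 secreted ligands and bridging proteins of delta and kainate receptors, 2 were called lower and 0 higher, with a median of -0.028. Among all tested genes 5.95% were called lower and 9.32% higher. Nrxn3, a presynaptic neurexin gene, stood at 130 ± 9.78 CPM in TAF15 OE and 175 ± 7.75 CPM in Control (log2 fold change -0.43, SE 0.074, adjusted p = 0.00413). Adgrb3, a receptor for C1q-like proteins, stood at 101 ± 6.57 CPM in TAF15 OE and 124 ± 1.62 CPM in Control (-0.29, SE 0.069, adjusted p = 0.0179). It was not called without Control 2 (adjusted p = 0.0539), Control 3 (0.0516) or TAF15 OE 2 (0.0611). Cbln1, a cerebellin that binds delta receptors, stood at 11.2 ± 6.36 CPM in TAF15 OE and 5.56 ± 2.33 CPM in Control (1.02, SE 0.53, adjusted p = 0.278). Cbln3, at 3.13 ± 1.97 CPM in TAF15 OE and 1.01 ± 0.710 CPM in Control (1.63, SE 0.70, adjusted p = 0.176), was not called either, and both overlapped between groups. Cbln3 was called higher by DESeq2 (adjusted p = 0.0419) and by edgeR with no filter (adjusted p = 4.17e-04). Cbln1 was called higher with the replicate block (0.95, adjusted p = 0.0492), and its log2 fold change ran from 0.48 without TAF15 OE 3 to 1.37 without Control 2, called in neither. Under scaling on neuronal markers neither Nrxn3 (adjusted p = 0.0971) nor Adgrb3 (0.692) was called.

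The AMPA and NMDA receptors, the other ionotropic glutamate receptors, gave 6 of 10 tested subunit genes called lower and 0 higher, with a median log2 fold change of -0.35, against 2 of 7 and -0.14 for the kainate and delta receptor genes. The share of all tested genes called lower was 5.95%, and 9.32% were called higher. The difference between the families was not tested. Gria1 (-0.59, SE 0.076) and Grin1 (-0.45, SE 0.060) had the smallest p, and both were called under every setting tried, including scaling on neuronal markers. Gria2 (-0.43), Gria3 (-0.27), Grin2a (-0.44) and Grin2b (-0.45) were also called lower, and none of these 4 was called under scaling on neuronal markers. With single libraries left out, Gria3 was not called without Control 1 (adjusted p = 0.135), Control 2 (0.0615), Control 3 (0.0715), TAF15 OE 1 (0.0580) or TAF15 OE 2 (0.118). Grin2a was not called without Control 1 (0.0901), Control 3 (0.0933), TAF15 OE 2 (0.108) or TAF15 OE 3 (0.108). Grin2b was not called without Control 1 (0.0619), Control 3 (0.0618) or TAF15 OE 2 (0.0527).

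**Figure D4:**
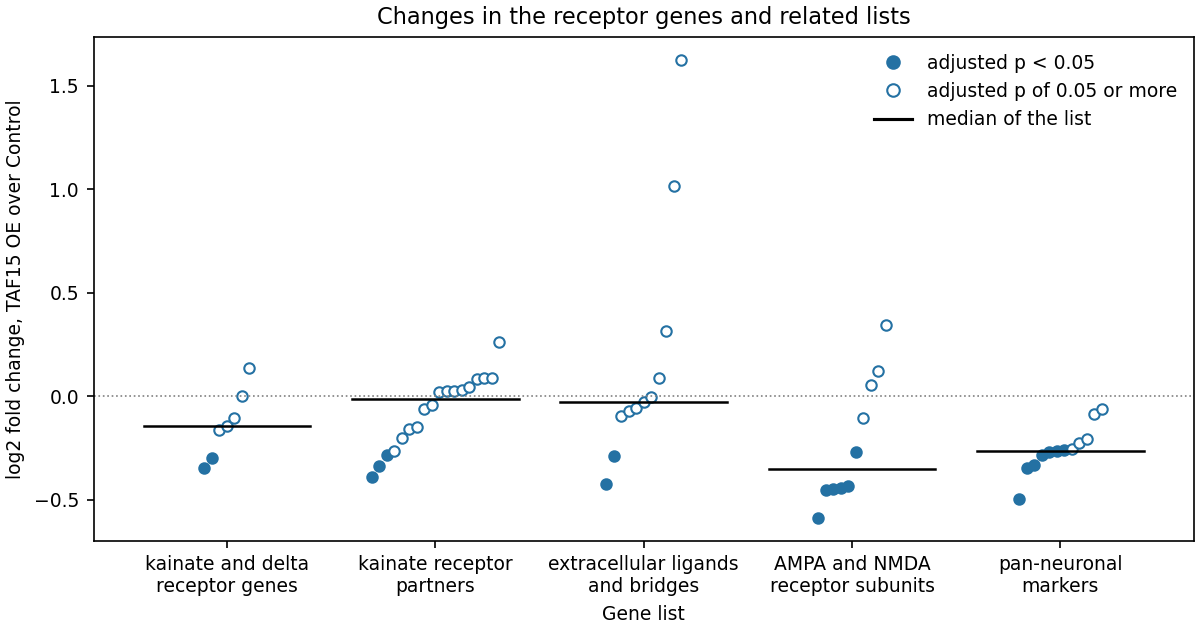
Log2 fold change of TAF15 OE over Control for each tested gene of 5 lists, with filled points for an adjusted p below 0.05 and a line at the median of each list. The medians are -0.14, -0.012, -0.028, -0.35 and -0.26 from left to right, and no gene of these lists is filled above 0.

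Among 10832 protein-coding genes that averaged 3 or more on the log2 CPM scale, the patterns over the 6 libraries nearest to that of Grik5 were those of Atg9a and Pik3r2, at root mean square distances of 0.020 and 0.022 on the log2 scale. Their log2 fold changes were -0.28 and -0.29. The nearest to Grid1 were Atf4 and Rfxap, at distances of 0.020 and 0.029 and with log2 fold changes of -0.35 and -0.34. The distance was taken after centring each gene over the libraries, and so weighs the group difference most.

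**Figure D5:**
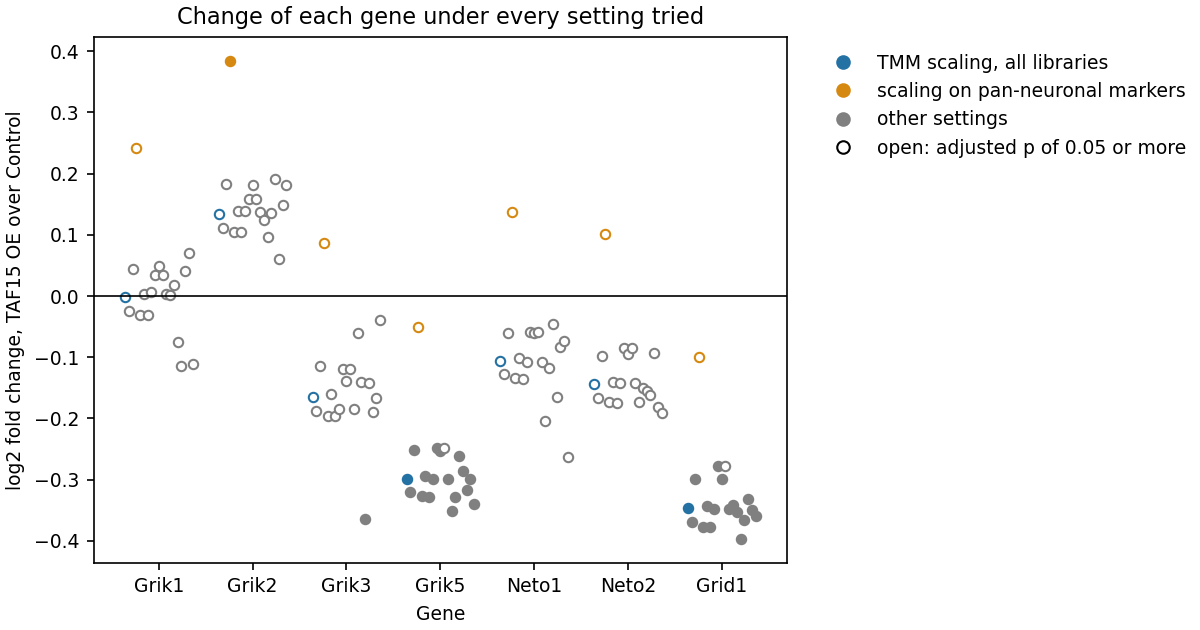
Log2 fold change of TAF15 OE over Control for each of the 7 genes under each of the settings tried (blue for TMM scaling with all libraries, orange for scaling on pan-neuronal markers, grey for the others), filled where the adjusted p is below 0.05. Grik5 and Grid1 are negative and mostly filled, Grik3 is filled in a single setting, and every orange point lies above the other points of its gene.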

How the data were processed

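RNA-seq of hippocampus was analysed in 6 libraries, 3 TAF15 OE and 3 Control, each from 1 mouse. Titles gave groups and replicate numbers. The tools listed in the submitters' processing notes are HISAT2 2.1.0, TopHat2, Bowtie2 2.2.3 and CASAVA, and the build is GRCm38. No source used here gives their roles, the counter, the annotation or the strandedness. The authors deposited raw counts per Ensembl gene, a table of FPKM (counts per gene length and library total), and a comparison table. That table repeats the counts and gives the authors' normalised signal, fold change both linear and as log2, and p-values with adjusted p-values from a test it does not name. Its positions were used as given. For the genes described here, its log2 fold changes and p-values matched those of the DESeq2 alternative, with slightly different adjusted p-values. They are therefore not separate evidence from that alternative.

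Counts were fitted in R 4.3.3 with edgeR 4.0.16: filterByExpr (minimum count 10, minimum total 15), TMM scaling, and a quasi-likelihood F-test (glmQLFit, robust) with group as the only term. Adjustment was by Benjamini-Hochberg over 16758 genes, and genes were called below 0.05. SE came from the F statistic. Totals of 14965464 to 16067000 counts limit precision, and p-values measure the spread between 3 mice per group. Shares were compared by exact permutation in SciPy 1.17.1. Alternatives used DESeq2 1.42.0, limma 3.58.1, other scalings and filters, FPKM with pseudocounts of 1 and 0.1, the replicate number as a block, and left-out libraries. The fit was tested on simulated counts. It recovered 32.3% of seeded log2 changes of 0.5 in size, 77.3% of those of 1 and 94% of those of 2. Of its 150 calls, 15 were false, a larger share than the adjusted p threshold of 0.05 aims at. Changes smaller than 0.5, such as those of all 7 genes, were not seeded, so recovery at their size is not known. The 7 genes and all lists were chosen with earlier results of these data known. Named are all 7 genes. From each related list the called genes were named, filled up to 4 by p, and for each called member the 2 genes with the nearest profile. Some genes of the lists are not reported here by name. Of 19 listed partners 18 are reported. Figures used matplotlib 3.10.9.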

Additional observations from a re-analysis of the deposited data

How the results depend on the processing

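Grik5 and Grid1 were lower under all 18 alternatives and called under 16, with log2 fold changes of -0.35 to -0.051 for Grik5 and -0.40 to -0.10 for Grid1. Their calls were lost under scaling on pan-neuronal markers, where 1 member (Grik2) was called higher and 0 lower. They were also lost with limma-trend on log2(FPKM + 1) without a filter (adjusted p = 0.0577 and 0.0803), where 0 members were called lower. Scaling on pan-neuronal markers turned the sign of Grik1 (0.24), Grik3 (0.087), Neto1 (0.14) and Neto2 (0.10). Grik1 stood near 0: its sign also turned with total counts (0.045), a mean of at least 1 CPM (0.0028), limma-voom (0.0064), FPKM with a pseudocount of 1 with or without a filter (0.034) or of 0.1 (0.049), and the replicate block (0.0037), and it ran from -0.11 to 0.070 with single libraries left out.

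Over all genes, 1562 were called higher and 997 lower, 61.0% of them higher. With total counts 72.0% were higher (1838 higher and 716 lower). Scaling on pan-neuronal markers gave 96.9% higher (5352 higher and 171 lower). The lower calls numbered 1568 with no filter, and 441 or 443 on FPKM with pseudocounts of 1 or 0.1. On FPKM without a filter 436 were higher and 165 lower. With single libraries left out the higher calls ran from 877 to 1293 and the lower calls from 365 to 1208. The members called stayed at 0 higher and 2 lower without both Control 1 and TAF15 OE 1, without each library except TAF15 OE 3 (3 lower, with Grik3), and with the replicate block (1904 higher and 1387 lower over all genes). The titles link same-numbered libraries by that number alone. Their deviations correlated weakly, at 0.126, 0.0776 and 0.0871 across genes, but each library correlated best with its own number. Control 1 and TAF15 OE 1 also stood apart together on the second principal component, and both held less choroid plexus RNA. Whether same-numbered mice were handled together was not tested. The block changed no member's call. On raw counts the Grik2 share differed by 4.35 percentage points, against 2.38 on FPKM, since counts weight long transcripts more. Without Control 1 and TAF15 OE 1 the Neto to Grik ratio differed by 0.0023, and the cause was not tested. Depth limits Grik1 most.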
